A study of Mus musculus with 35 samples.

Results

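The genes described here are 10 members of 3 families of calcium-binding and sugar-binding proteins: the S100 genes S100a4, S100a6, S100a10, S100a11 and S100a13, the galectin genes Lgals1 and Lgals3, and the annexin genes Anxa1, Anxa2 and Anxa6. They were found by gene name among the 20886 genes that the array's probes could be matched to, and 12 probes belonged to them, with 2 probes each for S100a4 and Anxa1. All 10 passed the filter on dim probes among the sorted cells and over all arrays. They were chosen by measured values of these same data, because the S100a4 signal was low in intestine resident cells and the Lgals3 signal low in liver resident cells, each against blood. Both genes in those cells, and every gene set against blood in liver or intestine cells, are therefore given as descriptions with no test.

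All animals were healthy wild type C57BL/6 female mice of 8 to 16 weeks, with no treatment or deletion in any group. Resident memory CD8 T cells (Trm) were prepared from liver (n = 5), lung (n = 6) and small intestine (n = 6) by dissociation, a 40% and 80% Percoll gradient and magnetic selection for CD8b and then for CD103, so that Trm here means CD8b+ CD103+ cells and nothing further about residency was measured. Effector memory cells (Tem, n = 6) were CD8b+ blood cells left after removal of CD62L+ cells, from the same animals. Whole samples of liver, lung, small intestine and blood mononuclear cells (PBMC) were not sorted and had 3 arrays each. The labels do not link arrays to animals, so p-values measure only the spread between these samples, which may be technical.

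S100 proteins are small EF-hand proteins that bind calcium and then dock onto other proteins, among them non-muscle myosin for S100A4. S100A10 does not itself respond to calcium and forms a complex with annexin A2, and S100A11 is a known partner of annexin A1. Annexins bind acidic membrane lipids in the presence of calcium and act in membrane repair, exocytosis and the link between membrane and actin. Galectins bind beta-galactosides on glycoproteins. Galectin-1 and galectin-3, the products of Lgals1 and Lgals3, bind T cell surface glycoproteins and are known for effects on T cell death and receptor signalling. In T cells, S100a4, S100a6, S100a10, Lgals1, Anxa1 and Anxa2 are known as genes that are higher in effector and memory cells than in naive cells.

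Levels are scaled log2 signals, that is, the log2 intensity of a gene's probe minus the 75th percentile of its array. A level of 0 is the brightness of that percentile, and 1 unit is a 2-fold difference. The percentile was taken over probes bright enough on all arrays compared, a set that differs between the 23 sorted-cell arrays and all 35 arrays, so that levels on the sorted-cell scale and on the 35-array scale are given apart. Probes differ in how brightly they bind, and levels are compared between groups for one gene, never between genes. On single arrays, 21.7% to 40.7% of probes were well above background, except for liver Trm 3 (12.2%), whole PBMC 1 (7.80%) and whole liver 2 (64.6%). Calls of members that change without one of these 3 arrays are given both ways. The CD8 T cell markers checked were well above background, 8 of 8, on every sorted-cell array. In bulk samples such as these, fewer cells of a type and less RNA per cell cannot be told apart.

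The 5 S100 genes all lie on mouse chromosome 3 (GRCm38.p6). S100a13 (bases 90514233 to 90524581), S100a4 (90603770 to 90606045) and S100a6 (90612894 to 90614414) form a group that spans 100 kb. S100a11 (93520496 to 93526288) and S100a10 (93555117 to 93564645) form a second group of 44 kb, and 2906 kb lie between the groups. Lgals1 is on chromosome 15 (78926725 to 78930465) and Lgals3 on chromosome 14 (47373860 to 47386167). Anxa1 is on chromosome 19 (20373434 to 20390671), Anxa2 on chromosome 9 (69453683 to 69491792) and Anxa6 on chromosome 11 (54978953 to 55033471). S100a13 overlaps the neighbouring gene S100a1 in this annotation.

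S100a4, whose protein binds non-muscle myosin and is associated with cell movement, was highest in Tem and lowest in intestine Trm among the sorted groups. On the sorted-cell scale its levels were -1.81, -2.13, -1.91, -2.38 and -1.85 in the 5 liver Trm arrays. Lung Trm ran from -3.44 over a median of -1.95 to -0.79, and intestine Trm from -8.03 over a median of -4.68 to -3.57. Tem ran from -0.56 over a median of 0.07 to 1.13. Every Trm array of the 3 organs lay below every Tem array, and every intestine Trm array lay below every liver and lung Trm array. In intestine Trm, the probe was well above background on only 4 of 6 arrays, and the other 2, intestine Trm 2 and 4, gave the lowest levels. The same 2 arrays had the highest intestine Trm means of the fibroblast and endothelial marker lists given below. Intestine Trm 3, the next in both lists, had S100a4 well above background at -4.03. The part of such cells in the S100a4 levels was not tested. Against Tem, S100a4 differed by -5.49 ± 0.60 (log2, SE) in intestine Trm, with the 2 dim arrays taken at their measured signal, and by -2.16 ± 0.63 in liver Trm. The second S100a4 probe gave -5.43 in intestine Trm, -2.62 in liver Trm and -2.34 in lung Trm, each against Tem.

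The one comparison of Trm with Tem that the choice of genes did not use was that of lung Trm, although it shares its Tem arrays with the other comparisons. S100a4 and Lgals3 were chosen by differences from these same Tem arrays, so that their p-values here are not independent of the choice. S100a4 was lower in lung Trm by 2.14 ± 0.60 on the log2 scale. Its groups did not overlap on the sorted-cell scale, and it was therefore lower on 6 of 6 slides. On the 35-array scale the highest lung Trm array (-1.27) lay just above the lowest Tem array (-1.33). Its adjusted p from limma was 0.0502, just outside the threshold of 0.05. Without lung Trm 3, or without any single one of intestine Trm 1 to 4 (which share the estimate of spread), it passed, and with single arrays left out the adjusted p ran from 0.0152 to 0.115.

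S100a6, a relative of S100A4 that also binds cytoskeletal and annexin partners, followed S100a4 in part. Its levels were -2.35, -2.98, -1.19, -1.60 and -1.99 in liver Trm. Lung Trm ran from -3.13 over a median of -1.49 to -0.26, intestine Trm from -3.82 over -2.50 to -1.27, and Tem from -0.69 over -0.20 to 1.57. Liver and intestine Trm did not overlap Tem, and lung Trm overlapped it. The differences from Tem were -2.36 in intestine Trm and -2.02 ± 0.53 in liver Trm. In lung Trm the difference of -1.63 ± 0.51 did not pass (adjusted p = 0.0887, lower on 5 of 6 slides). Without lung Trm 1 it passed, and with arrays left out the adjusted p ran from 0.0482 to 0.205. Lung Trm 1, 2 and 3 were the highest lung Trm arrays for S100a6 and for the lung epithelial marker list given below. Lung Trm 6 was the lowest for both. The part of epithelial cells in the S100a6 levels was not tested. Intestine against lung Trm gave -0.74 (adjusted p = 0.393) for S100a6, and the groups overlapped.

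The 250 bases before the start of S100a4 and S100a6, neighbours on chromosome 3 with partly different patterns, are shown with those of S100a11 and Lgals3, whose differences from Tem were the most negative of the members in liver Trm. The sequences are RefSeq's (GRCm38.p6, plus strand, 5′ to 3′), at chr3:90603520-90603769 for S100a4, chr3:90612644-90612893 for S100a6, chr3:93520246-93520495 for S100a11 and chr14:47373610-47373859 for Lgals3. Capitals mark matches, on either strand, to 5 short motifs.

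S100a4: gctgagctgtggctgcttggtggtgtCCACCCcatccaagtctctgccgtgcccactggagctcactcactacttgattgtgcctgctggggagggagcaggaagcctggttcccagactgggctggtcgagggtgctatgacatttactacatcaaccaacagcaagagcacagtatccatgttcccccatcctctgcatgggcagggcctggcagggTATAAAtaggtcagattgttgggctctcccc

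S100a6: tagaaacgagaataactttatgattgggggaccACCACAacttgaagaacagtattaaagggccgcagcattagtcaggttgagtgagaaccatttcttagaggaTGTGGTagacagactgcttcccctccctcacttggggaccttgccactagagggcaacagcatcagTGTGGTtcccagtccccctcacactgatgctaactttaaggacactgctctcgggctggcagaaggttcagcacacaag

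S100a11: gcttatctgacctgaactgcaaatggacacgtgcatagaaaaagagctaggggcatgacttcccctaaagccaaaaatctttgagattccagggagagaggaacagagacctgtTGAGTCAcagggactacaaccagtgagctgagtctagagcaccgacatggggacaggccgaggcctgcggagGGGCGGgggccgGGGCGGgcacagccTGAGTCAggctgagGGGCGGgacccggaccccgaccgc

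Lgals3: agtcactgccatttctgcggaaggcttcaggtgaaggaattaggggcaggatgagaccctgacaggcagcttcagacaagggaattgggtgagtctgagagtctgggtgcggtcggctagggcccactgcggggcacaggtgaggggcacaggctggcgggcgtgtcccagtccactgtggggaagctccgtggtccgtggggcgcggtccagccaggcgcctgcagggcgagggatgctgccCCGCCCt

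The table of promoters held 7 of the 10 members (S100a10, Lgals1 and Anxa6 are named only), among 32851 promoters in all. The letters of a TATA box, TATAAA, stood before S100a4, Anxa1 and Anxa2, and 12.4% of all promoters hold them. S100a4 also had the CACCC box CCACCC, found in 28.1% of promoters. S100a6 had 3 matches to ACCACA, the letters of a RUNX motif, which 14% of promoters hold. S100a11 had 2 matches to the AP-1 motif TGANTCA, found in 6.75% of promoters, and 3 to the GC box GGGCGG, found in 32.7%. Lgals3 had the GC box and no other of the 5 motifs in this window, of which 66% was G or C. These matches describe the letters, and no binding was measured.

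S100a10, the partner of annexin A2, was lower in all 3 Trm groups than in Tem by a smaller amount. Liver Trm had -1.80, -1.30, -1.85, -1.87 and -1.97, lung Trm ran from -1.95 over a median of -1.23 to -0.89, intestine Trm from -2.69 over -1.48 to -1.19, and Tem from -1.18 over -0.54 to -0.03. Liver and intestine Trm did not overlap Tem. The difference from Tem was -1.18 in liver Trm, -0.73 ± 0.26 in lung Trm (adjusted p = 0.147, lower on 6 of 6 slides) and -1.07 in intestine Trm. S100a13, which is involved in the release of a fibroblast growth factor that lacks a signal peptide, kept to a narrow range. Its 23 sorted-cell levels lay between -0.39 and 0.72, and it differed from Tem by -0.31 in liver Trm, by -0.37 ± 0.19 in lung Trm (adjusted p = 0.354) and by -0.46 in intestine Trm.

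S100a11, the partner of annexin A1, was set apart in the liver. Its levels were -4.30, -3.02, -5.67, -5.13 and -5.55 in liver Trm, where only liver Trm 1 and 2 were well above background. Lung Trm ran from -3.75 over a median of -2.59 to -1.92, intestine Trm from -4.24 over -2.77 to -2.26, and Tem from -3.13 over -2.46 to -1.02. Liver Trm 2 lay within the range of each other sorted group, and the other 4 liver arrays lay below all arrays of those groups. S100a11 fell by 1.93 ± 0.48 on the log2 scale in liver Trm against lung Trm (adjusted p = 0.0125, lower on 5 of 5 slides), and that call held with each array left out in turn. It rose by 1.80 ± 0.48 in intestine Trm against liver Trm (adjusted p = 0.0158, higher on 4 of 5 slides), a call that ended without liver Trm 3 (1.52, adjusted p = 0.0623), without liver Trm 6 and under background correction by normexp. Against Tem it differed by -2.54 ± 0.48 in liver Trm, by -0.61 ± 0.46 in lung Trm (adjusted p = 0.55) and by -0.74 in intestine Trm.

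The hepatocyte marker list moved with the liver arrays. On the 35-array scale its mean level was -2.81, -3.12, 0.31, -0.14 and -1.35 in liver Trm 1, 2, 3, 5 and 6, with 9 or 10 of its 10 genes well above background, and it was at most -6.36 on every other sorted-cell array. The 3 liver arrays with the highest hepatocyte means were the 3 on which S100a11 was not well above background. On the sorted-cell scale S100a10 and Anxa6 were also lowest on these 3 of the liver arrays. By contrast, S100a6, S100a13, Lgals1, Anxa1 and Anxa2 were highest on them, and S100a4 and Lgals3 did neither. Anxa1 averaged -4.79 in whole liver and -6.31 in liver Trm on the 35-array scale, a difference that was not called. Albumin (Alb) and Apoa1 were never above background in lung Trm, intestine Trm or Tem. In whole liver, where hepatocyte markers averaged 0.68 to 0.77, S100a4, S100a11 and Lgals3 were not well above background on any array. The part of hepatocyte RNA in the liver Trm levels was not tested.

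Signals of dim probes also differed between the groups. Over the 19956 probes that were never well above background, the median difference was 1.33 in liver Trm against Tem and 1.09 in liver Trm against lung Trm. It was 0.24 in lung Trm against Tem and 0.70 in intestine Trm against Tem. It was -0.63 in intestine Trm against liver Trm, so that on this scale dim probes read highest in liver Trm.

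**Figure D1:**
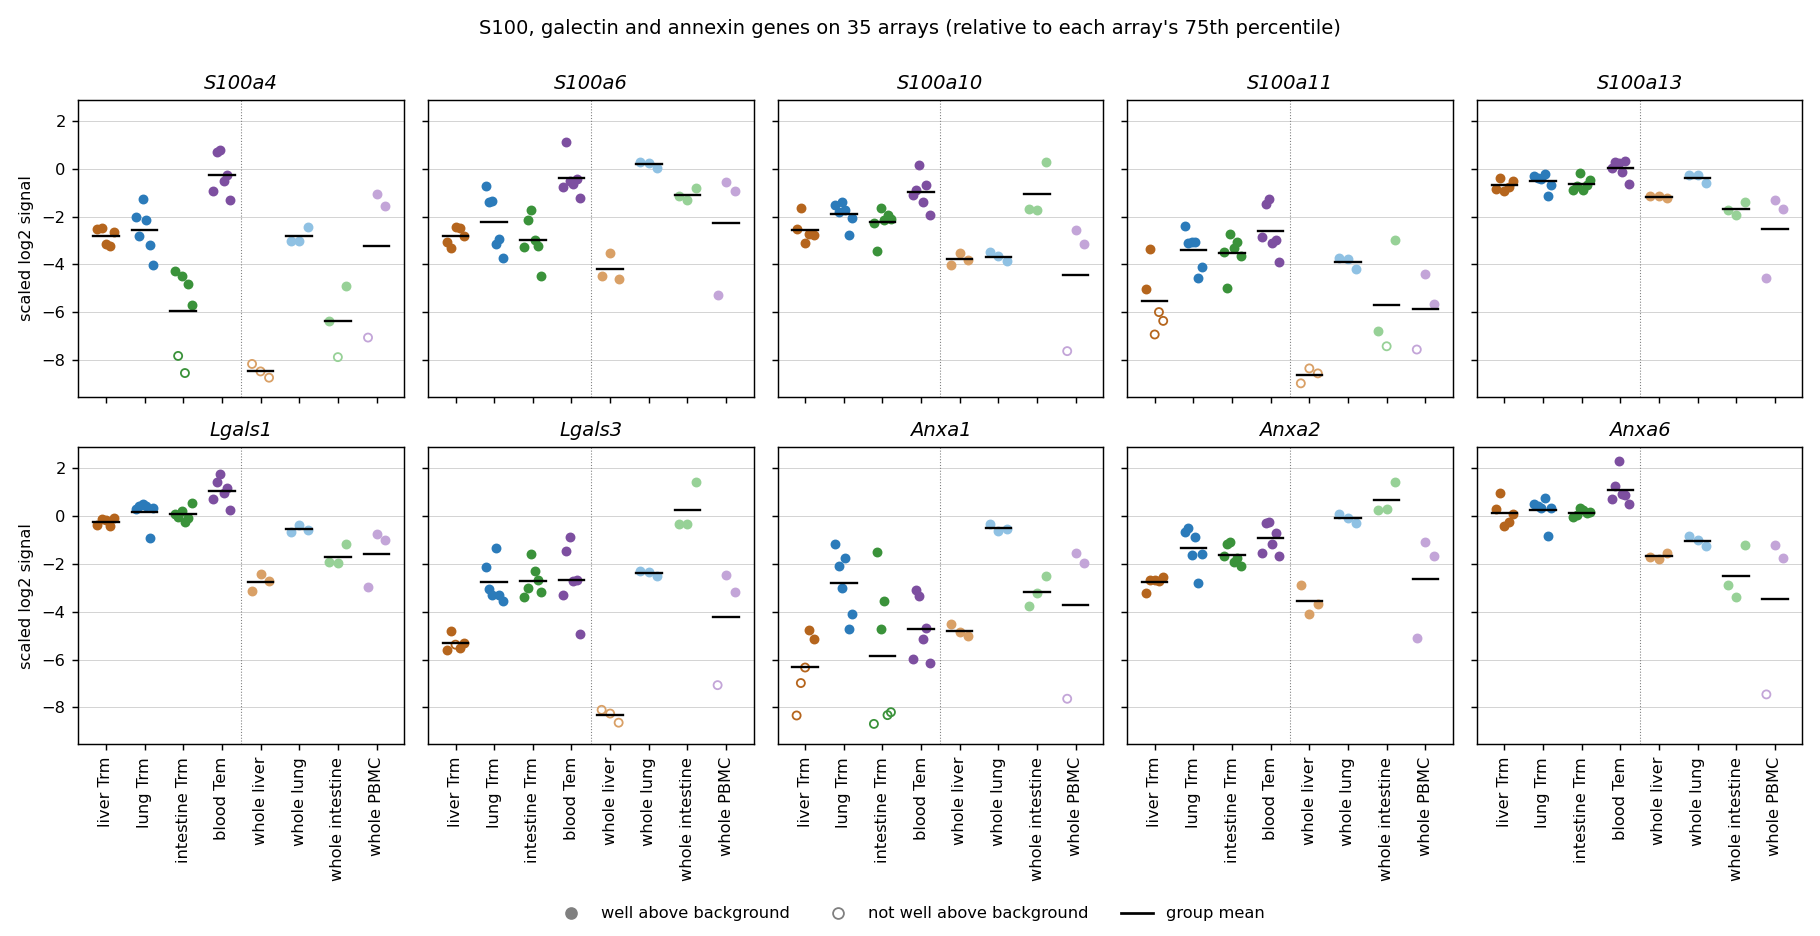
Scaled log2 signal on the 35-array scale (vertical axis) of the 10 genes on every array, 1 panel a gene, with sorted groups left and whole tissues right of the dotted line; bars are group means and open circles are arrays where the probe was not well above background. S100a4 averages -5.94 in intestine Trm and -0.26 in Tem, Lgals3 averages -5.32 in liver Trm and -2.67 in Tem, and whole PBMC 1 lies far below the other PBMC arrays for most genes.

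Lgals3, which encodes galectin-3, was low in liver Trm and at like levels in the other sorted groups. Its levels were -4.90, -4.44, -4.12, -4.66 and -4.49 in liver Trm, with liver Trm 3 not well above background. Lung Trm ran from -2.94 over a median of -2.52 to -0.78, intestine Trm from -2.68 over -2.21 to -1.15, and Tem from -4.17 over -2.25 to -1.02. Every liver Trm array lay below every lung and intestine Trm array. Only Tem 6, at -4.17, reached into the range of liver Trm. The difference was -2.26 ± 0.47 in liver Trm against Tem, -2.32 ± 0.47 in liver against lung Trm and 2.43 ± 0.47 in intestine against liver Trm, all given as descriptions. Lung Trm against Tem gave 0.06 ± 0.45 (adjusted p = 0.955), and intestine Trm against Tem 0.17. Lung Trm 4 and then lung Trm 1 were the highest lung Trm arrays for Lgals3. They were also the highest for the list of monocyte, macrophage and dendritic cell genes given below. The lowest array differed, lung Trm 6 for Lgals3 and lung Trm 3 for the list. The part of such cells in the Lgals3 levels was not tested.

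Lgals1, which encodes galectin-1, showed no such set-apart organ. Liver Trm had 0.35, 0.21, 1.07, 0.47 and 0.72, lung Trm ran from -0.10 over a median of 0.93 to 0.99, intestine Trm from 0.26 over 0.70 to 1.22, and Tem from 1.04 over 1.53 to 1.87. Every lung Trm array lay below every Tem array, while liver Trm 3 and intestine Trm 6 reached above the lowest Tem array. On the 35-array scale, 5 of the 6 lung Trm arrays, at 0.28 to 0.51, lay above Tem 6 at 0.27. The difference from Tem was -0.89 in liver Trm, -0.71 ± 0.23 in lung Trm (adjusted p = 0.107) and -0.77 in intestine Trm. With no overlap on the sorted-cell scale, Lgals1 was necessarily lower in lung Trm on 6 of 6 slides. None of the comparisons between Trm groups passed for Lgals1.

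Anxa1, whose protein is a mediator of glucocorticoid action and of the resolution of inflammation, spread most within the Trm groups. Liver Trm had -7.63, -6.64, -5.07, -3.89 and -4.33, with only liver Trm 5 and 6 well above background. Lung Trm ran from -3.91 over a median of -2.04 to -0.69, intestine Trm from -7.97 over -5.90 to -0.78, and Tem from -5.52 over -4.47 to -2.63. Lung Trm was highest by its median, and in intestine Trm 3 arrays (2, 3 and 4) were well above background and 3 were not. Anxa1 fell by 3.28 ± 1.08 on the log2 scale in liver Trm against lung Trm (adjusted p = 0.0421, lower on 4 of 5 slides). That call ended when any 1 liver Trm array was left out, among others, with adjusted p between 0.0204 and 0.082 over the arrays left out, and the second, dim Anxa1 probe gave 0.36. Lung Trm against Tem gave 2.10 ± 1.03 (adjusted p = 0.34, higher on 6 of 6 slides), and intestine against lung Trm -3.001 ± 1.03 (adjusted p = 0.0664, lower on 5 of 6 slides). The last of these passed without lung Trm 5, without intestine Trm 2 or without intestine Trm 4 (adjusted p from 0.00743 to 0.166 over the arrays left out).

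Some marker lists of other cells followed Anxa1 in part. The fibroblast list had means of -6.73, -1.73, -4.54, -3.63, -6.97 and -5.65 in intestine Trm 1 to 6 on the 35-array scale, and the 3 highest belonged to the 3 arrays on which Anxa1 was well above background. The endothelial list, at -6.46, -2.32, -4.76, -4.44, -6.67 and -6.60 in the same arrays, had the same 3 arrays highest. The enterocyte and Paneth cell list, at -5.22, -4.40, -6.54, -5.52, -6.16 and -6.61, did not. In lung Trm 1 to 6, the lung epithelial list had means of -0.79, -1.74, -2.25, -4.54, -4.26 and -6.89, and the list of monocyte, macrophage and dendritic cell genes -3.57, -4.10, -5.53, -2.31, -5.46 and -4.50. Lung Trm 5 and 6, the lowest for Anxa1 at -3.91 and -3.52, were among the 3 lowest for Anxa2 and for the epithelial list. Lung Trm 4 went the other way, with Anxa1 at -1.20, above lung Trm 2 and 3, and an epithelial mean below theirs. Of the 7 lung epithelial markers, 4 to 7 were above background on each lung Trm array and 1 to 4 on each Tem array. In whole lung, Anxa1 had -0.31, -0.63 and -0.53, above the mean of every sorted group on that scale. The part of these cells in the Anxa1 and Anxa2 levels was not tested.

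**Figure D2:**
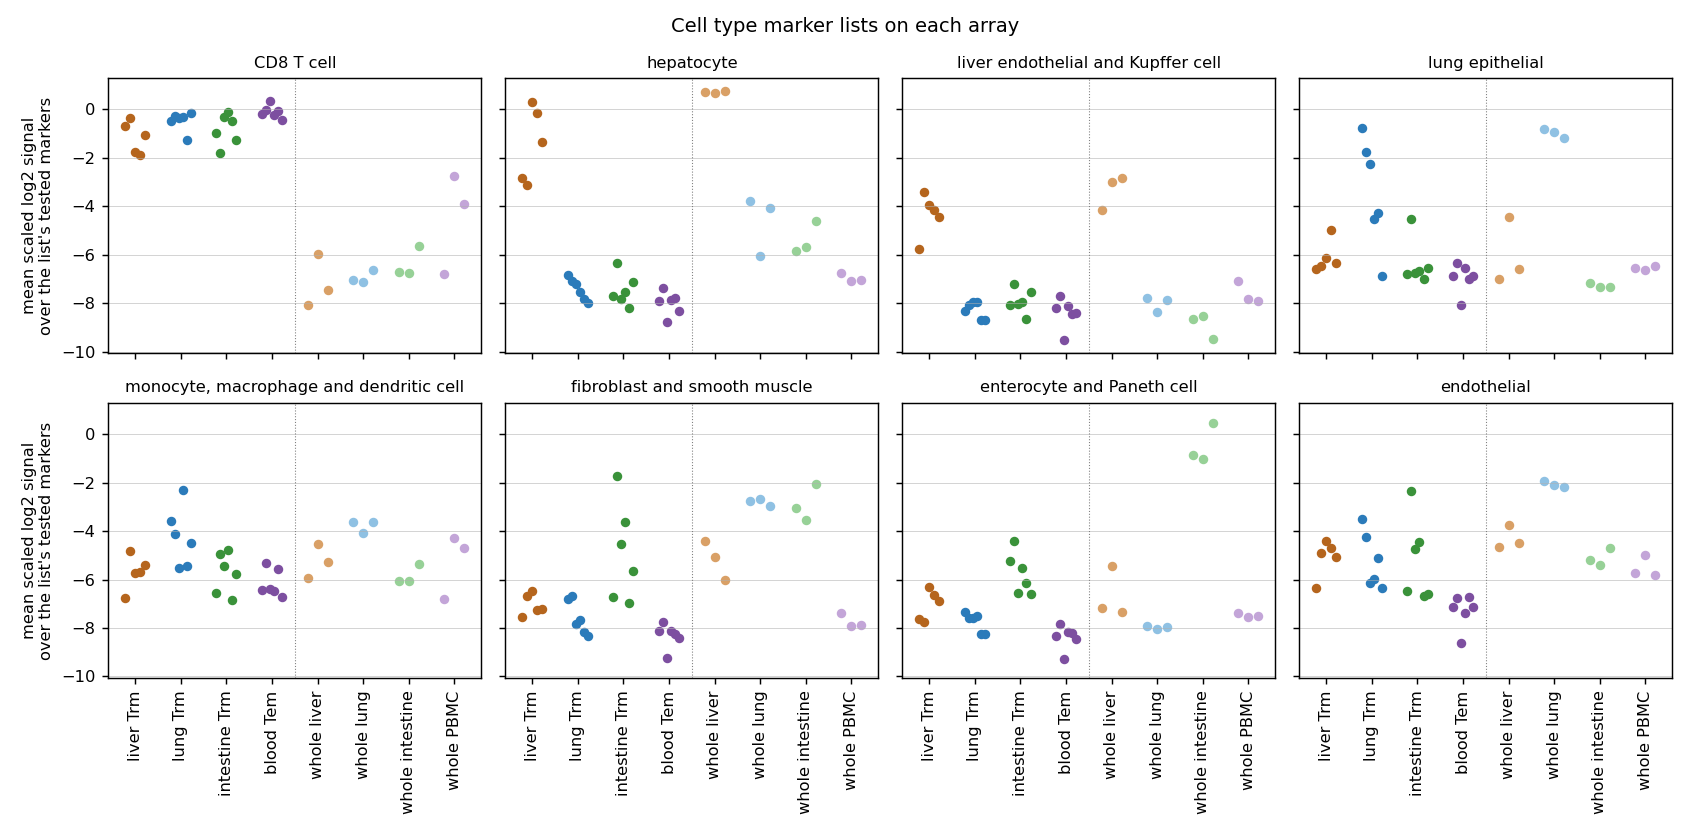
Mean scaled log2 signal on the 35-array scale (vertical axis) of 8 marker lists on every array, 1 panel a list and 1 point an array, with sorted groups left and whole tissues right of the dotted line. Hepatocyte markers lie between -3.12 and 0.31 in liver Trm, and lung epithelial markers between -6.89 and -0.79 in lung Trm.

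Anxa2, which binds S100A10 and phospholipids at the membrane, was lowest in liver Trm among the sorted groups. Its levels were -2.50, -2.31, -1.42, -1.84 and -1.73 in liver Trm. Lung Trm ran from -1.98 over a median of -0.66 to 0.01, intestine Trm from -1.43 over -1.11 to -0.43, and Tem from -1.09 over -0.51 to 0.18. All liver Trm arrays lay below all Tem arrays, and only liver Trm 3 reached into the range of intestine Trm. Anxa2 fell by 1.19 ± 0.33 on the log2 scale in liver against lung Trm (adjusted p = 0.022, lower on 4 of 5 slides). The call ended without liver Trm 5, lung Trm 1 or lung Trm 2 (adjusted p from 0.00322 to 0.0572 over the arrays left out). The difference from Tem was -1.43 in liver Trm, -0.24 ± 0.32 in lung Trm (adjusted p = 0.758) and -0.49 in intestine Trm. Intestine against liver Trm gave 0.94 ± 0.33 (adjusted p = 0.0662, higher on 5 of 5 slides).

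Anxa6, an annexin with a duplicated core that is abundant in lymphocytes, was highest in Tem and close together in the 3 Trm groups. Liver Trm had 1.01, 1.31, 0.86, 0.63 and 0.92, lung Trm ran from 0.00 over a median of 0.94 to 1.29, intestine Trm from 0.64 over 0.78 to 0.81, and Tem from 1.19 over 1.38 to 2.14. All intestine Trm arrays lay below all Tem arrays. The difference from Tem was -0.56 in liver Trm, -0.68 ± 0.22 in lung Trm (adjusted p = 0.0984, lower on 6 of 6 slides) and -0.76 in intestine Trm.

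In lung Trm against Tem, none of the 10 genes passed in either direction, where 2.1% of all 8620 genes tested were higher and 1.03% lower. An unadjusted p under 0.05 was reached by 5 of them, S100a4, S100a6, S100a10, Lgals1 and Anxa6, and by 15.2% of all genes. The median difference was -0.65 over the members and -0.10 over all genes, and 2 members, S100a4 and Lgals1, did not overlap between the groups on the sorted-cell scale, where 1.53% of all genes lay lower without overlap and 1.36% higher. Over the members, the median difference from Tem was -1.31 in liver Trm, against -0.28 over all genes, and all 10 differences were negative. It was -0.77 in intestine Trm, against -0.03 over all genes, with 9 of 10 negative and Lgals3 the exception. Members lay below Tem without overlap in liver Trm for S100a4, S100a6, S100a10 and Anxa2, where 10.6% of all genes did and 3.76% lay above, and in intestine Trm for S100a4, S100a6, S100a10 and Anxa6, where 4.71% did and 3.25% lay above. The rule used both of these contrasts, and nothing is read from those counts. The 3 comparisons share the Tem arrays, whose S100a4 and Lgals3 levels had a part in the choice.

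**Figure D3:**
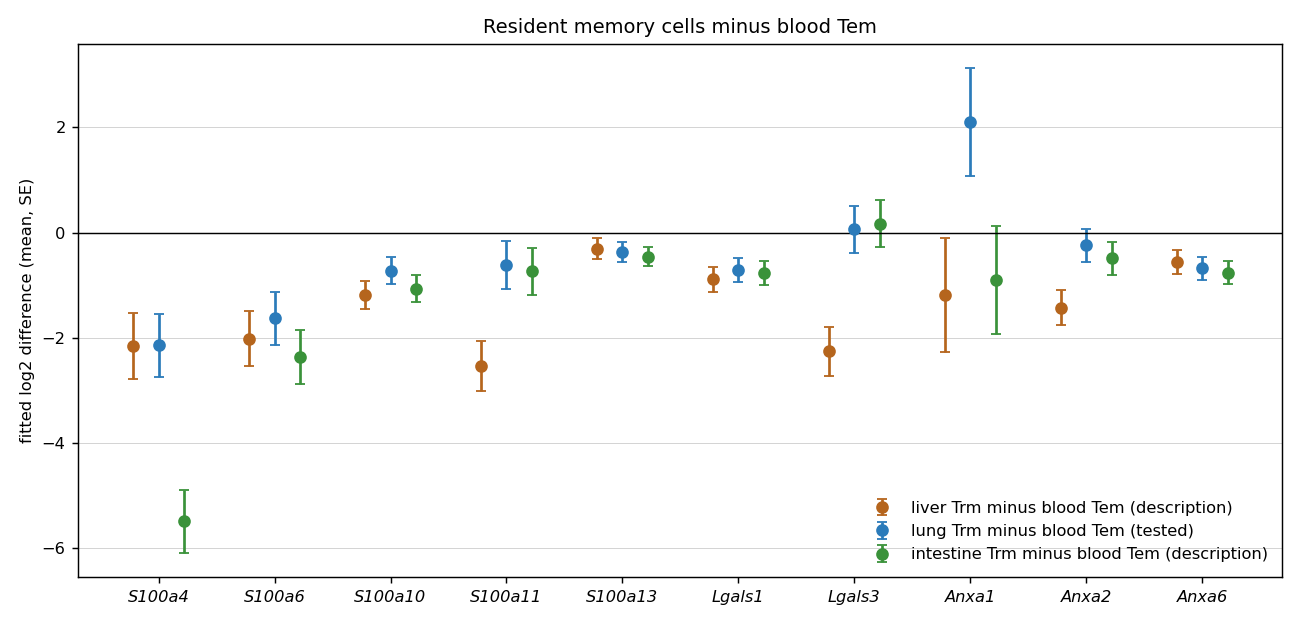
Fitted log2 difference from Tem (vertical axis, mean and SE) of the 10 genes in liver Trm, lung Trm and intestine Trm, from left to right within each gene. S100a4 is lowest in intestine Trm at -5.49, and S100a11 and Lgals3 are lowest in liver Trm at -2.54 and -2.26, while Anxa1 is at 2.10 in lung Trm.

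Between Trm groups, liver against lung Trm gave 3 lower members of the 9 tested, S100a11, Anxa1 and Anxa2, where 9.27% of all genes were lower, and 0 higher, where 8.52% were. Without liver Trm 3, the members called were S100a11 and Anxa2, 2 of 9, and the share of all genes called in either direction was 7.75%, against 17.8% with it. Intestine against liver Trm gave 1 higher member of 8, S100a11, where 8.85% of all genes were higher, and 0 lower, where 2.84% were. Intestine against lung Trm gave 0 of 9, where 5.24% of all genes were higher and 4.26% lower. There, only Anxa1 had an unadjusted p under 0.05, as did 26% of all genes. S100a4, described only, differed by -3.35 ± 0.60 in intestine against lung Trm and by -3.33 ± 0.63 in intestine against liver Trm. Neither pair of groups overlapped, as held for 1.66% of all genes (lower) and 3.84% (higher) in intestine against lung Trm, and for 1.36% (lower) and 4.69% (higher) in intestine against liver Trm, where Lgals3 was higher without overlap. Lgals3 was also the 1 member apart in liver against lung Trm, where 2.34% of all genes were lower and 3.07% higher without overlap. In liver against lung Trm, S100a4 gave -0.01 (adjusted p = 0.989) and its groups overlapped. The median of all genes in liver against lung Trm was -0.24 with the scaling used here, 0.17 after normexp, -0.41 after quantile normalization and -0.68 with scaling over all probes. S100a11 gave -1.11 after normexp and -2.62 after quantile normalization, Anxa1 -1.95 and -3.60, and Anxa2 -1.08 and -1.24, each below the median of all genes under that scaling. The Anxa1 call ended after normexp (adjusted p = 0.0766).

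Relatives and partners of the members were counted from lists of genes on the array. Of 12 other S100 genes listed, 6 were tested among the sorted cells, as were 4 of 9 other annexin genes and 7 of 9 other galectin genes. So were 13 of 17 partners and receptors and 14 of 15 genes of the cytoskeletal list. That list holds cytoskeletal and some other genes of effector and memory T cells. None of the other annexin or galectin genes passed in lung Trm against Tem, where 2.1% of all genes were higher and 1.03% lower. Of the other S100 genes, 2 were higher, S100a9 (adjusted p = 0.00037) and S100a8 (adjusted p = 0.000455). Both were well above background on 6 of 6 lung Trm arrays, against 2 of 6 Tem arrays for S100a9 and 1 of 6 for S100a8, so that no exact fold is given. S100a8 and S100a9 encode calprotectin, known from neutrophils and monocytes. The neutrophil and mast cell list averaged -5.54 to -2.80 in lung Trm, with 2 to 4 of its 4 genes above background, and -5.98 to -4.81 in Tem, with 1 or 2 of 4, and its part in these calls was not tested. Of the partners and receptors, 3 were lower in lung Trm than in Tem: Itgb1, the integrin beta-1 chain (-1.42, adjusted p = 0.039), Spn, which encodes the galectin-1 ligand CD43 (-0.87, adjusted p = 0.0177), and Ahnak, a large scaffold that binds the S100A10 and annexin A2 complex (-1.36, adjusted p = 0.0153). With the mean of all its probes, Ahnak turned to 0.28. The nuclear lamina gene Lmna was the 1 cytoskeletal list member that passed (1.56, adjusted p = 0.0299). The median difference was 0.36 over the annexins, -0.22 over the galectins, -0.19 over the partners and -0.24 over the cytoskeletal list, against -0.10 over all genes. Over 34 alternatives, the calls of S100a8 and S100a9 held in all, while those of Itgb1 were lost in 14, of Lmna in 11, of Ahnak in 3 and of Spn in 1.

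Of the 7 other galectin genes tested, 2 were higher in intestine than in lung Trm, where 5.24% of all genes were. They were Lgals2 (at least 12.6-fold, adjusted p = 4.58e-07) and Lgals4 (2.82 on the log2 scale, adjusted p = 0.00028). The same 2 were higher in intestine than in liver Trm (at least 5.90-fold for Lgals2, and 2.78 for Lgals4), where 8.85% of all genes were. Both are known as genes of the gut epithelium. Lgals2 was well above background on 6 of 6 intestine Trm arrays and on 0 arrays of liver Trm, lung Trm or Tem. It passed the filter among sorted cells only through intestine Trm, so that its direction was set by the filter and its p-values are no support. On the 35-array scale Lgals2 averaged -3.10 in intestine Trm and 0.63 in whole intestine, and Lgals4 -2.42 in intestine Trm and 1.43 in whole intestine. Enterocyte and Paneth cell markers averaged -6.61 to -4.40 in intestine Trm, with 3 to 6 of 10 above background and Apoa4, Lct, Alpi and Muc2 never, and at most -6.33 in the other sorted groups. Their part in the Lgals2 and Lgals4 levels was not tested. Plscr1, a phospholipid scramblase, was 3.41 higher in intestine than in lung Trm (adjusted p = 2.61e-05), and Cd44, a hyaluronan receptor, 1.94 higher (adjusted p = 3.31e-05). S100a9 was lower in intestine Trm, where 2 of 6 arrays were well above background, than in lung Trm (adjusted p = 0.00043), as was S100a8 (at least 10.4-fold lower, adjusted p = 0.000232). The actin crosslinker gene Flna also fell (-0.81, adjusted p = 0.0409), a call lost in 12 of the 34 alternatives, while the other calls of this comparison held in all of them. The median of the other galectin genes, Lgals2 included, was 0.43 in intestine against lung Trm and 0.40 in intestine against liver Trm, against 0.04 and 0.11 over all genes.

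In liver against lung Trm, 9.27% of all genes were lower and 8.52% higher. Of the 4 other annexin genes tested, 2 were lower, Anxa5 (-1.02, adjusted p = 0.0425) and Anxa11 (-0.92, adjusted p = 0.0269), beside the lower Anxa1 and Anxa2. The galectin gene Lgals7 rose (1.09, adjusted p = 0.0473) from -5.43 in lung Trm, well above background on all arrays of both groups. Probes never well above background had a median difference of 1.09 here as well, and the part of that shift in the Lgals7 call was not tested. Of the cytoskeletal list, Cd48, which encodes a surface protein (-1.39, adjusted p = 0.0271), and Vim, the intermediate filament gene (-0.68, adjusted p = 0.0449), fell. The median of the other annexin genes was -0.97, against -0.24 over all genes. All 5 of these calls were lost in some of the 34 alternatives, Anxa11 and Cd48 in 7 each, Anxa5 in 13, Vim in 14 and Lgals7 in 17. In intestine against liver Trm, Plscr1 was at least 5.23-fold higher (adjusted p = 3.44e-05) and Cd44 2.05 higher on the log2 scale (adjusted p = 1.98e-05). Lmna (1.57, adjusted p = 0.0155) and Cd48 (1.46, adjusted p = 0.0201) rose, Tmsb10, a thymosin that binds actin monomers, fell (-0.70, adjusted p = 0.0115), and S100a9, above background on 2 of 6 intestine arrays, fell (adjusted p = 0.00132). Outside the naming rule, and named after their values were seen, S100a8 fell as well (adjusted p = 0.00183) and Anxa7 rose (1.18, adjusted p = 0.0163). Of the 34 alternatives, Cd48 lost its call in 6, Tmsb10 in 3 and Lmna in 2.

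The comparison of sorted cells with whole tissue asked how far each gene follows the T cells and how far the tissue around them. Sorted cells and whole tissues were on different slides scanned in different sessions, so that sorting and slide cannot be told apart. In liver Trm against whole liver, 3 of 9 members tested were higher, where 8.53% of all genes were, and 0 were lower, where 23.7% were. S100a4 averaged -2.81 ± 0.37 (SD, n = 5) in liver Trm on the 35-array scale, against -8.16, -8.48 and -8.74 in whole liver, where it was never well above background. It was at least 12.8-fold higher in liver Trm (adjusted p = 1.35e-05). S100a11 was also called higher (adjusted p = 0.00242). It was well above background on only 2 of 5 liver Trm arrays and on 0 of 3 whole liver arrays, so that no fold is given. Lgals1 was 5.76-fold higher (2.53 ± 0.42 on the log2 scale, adjusted p = 1.2e-05). Lgals3, described only, was at least 2.26-fold higher in liver Trm than in whole liver, with liver Trm 3, not well above background, taken at its measured signal. Without whole PBMC 1, S100a10 (0.91, adjusted p = 0.0248) and Anxa6 (1.502, adjusted p = 9.15e-05) were also higher, making 5 of 9, where 43.3% of all genes were called in either direction. Without liver Trm 3, Anxa6 was also called, making 4 of 9, where 30.1% of all genes were called.

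In lung Trm against whole lung, 1 of 10 members was higher, S100a10 (1.80 ± 0.65, adjusted p = 0.025), where 15.7% of all genes were, and 1 was lower, S100a6 (-2.40 ± 0.71, adjusted p = 0.00606), where 25.8% were. S100a6 averaged -2.21 ± 1.21 (SD, n = 6) in lung Trm, against 0.30, 0.23 and 0.04 in whole lung, its highest group. The S100a10 call ended without any 1 whole lung array (adjusted p up to 0.0897). Without whole PBMC 1, 6 members passed, where 47.9% of all genes did in either direction. S100a10 (1.26) and Anxa6 (0.74, adjusted p = 0.0299) were then higher, and S100a6 (-2.94), Anxa1 (-2.86, adjusted p = 0.0312), Anxa2 (-1.80, adjusted p = 0.000123) and S100a13 (-0.70, adjusted p = 0.0083) lower.

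Intestine Trm against whole intestine gave 3 higher and 3 lower members of 9, where 11.7% of all genes were higher and 20.1% lower. S100a11 (2.19, adjusted p = 0.0275), Lgals1 (1.78, adjusted p = 0.000718) and Anxa6 (2.64, adjusted p = 0.00443) were higher. S100a11 had -6.77, -7.42 (not well above background) and -2.96 in whole intestine, and its groups overlapped. Its call ended without intestine Trm 3, whole intestine 1 or whole intestine 2 (adjusted p up to 0.269) and after normexp (adjusted p = 0.0636). The Anxa6 call ended without whole intestine 2 (adjusted p = 0.0538). Lgals3 (-2.94 ± 0.72, adjusted p = 0.00154), Anxa2 (-2.28 ± 0.57, adjusted p = 0.00187) and S100a6 (-1.89, adjusted p = 0.0391) were lower. The S100a6 call ended without liver Trm 3 (adjusted p = 0.0542), without any one of intestine Trm 1, 4, 5 and 6 and without any one whole intestine array (adjusted p up to 0.114). Without liver Trm 3, S100a13 joined the higher members, making 4 higher and 2 lower, where 33.2% of all genes were called. Lgals3 averaged -2.69 ± 0.66 (SD, n = 6) in intestine Trm, with every array below the -0.34, -0.33 and 1.42 of whole intestine. Without whole PBMC 1 all 9 passed, 4 higher and 5 lower, where 38.8% of all genes did in either direction, with S100a13 (0.99, adjusted p = 0.000456) added to the higher and S100a10 (-1.26, adjusted p = 0.00207) and Anxa1 (-2.73, adjusted p = 0.0477) to the lower. Without whole intestine 2, only 3 of the 9 passed, where 22.8% of all genes did.

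In Tem against whole PBMC, 8 of 10 members were higher, where 43.9% of all genes were, and 0 lower, where 11.3% were. The Tem arrays had a part in the choice of genes, so that these differences, S100a4 and Lgals3 first, are not independent of it. Without liver Trm 3, Lgals3 passed as well (1.80, adjusted p = 0.0389), making 9 of 10, where 57.3% of all genes were called. The count rested on whole PBMC 1. This array had S100a4 at -7.06, S100a10 at -7.63, S100a11 at -7.56, Lgals3 at -7.07, Anxa1 at -7.64 and Anxa6 at -7.46, all not well above background, while whole PBMC 2 and 3 had S100a4 at -1.07 and -1.55 and Anxa1 at -1.53 and -1.95. Without it, 5 members passed, where 27% of all genes did in either direction, against 55.2% with it. Anxa6 (1.82, adjusted p = 0.000206), Lgals1 (1.17, adjusted p = 0.00617), S100a10 (1.13, adjusted p = 0.024) and S100a13 (0.76, adjusted p = 0.0251) were higher in Tem, and Anxa1 was lower (-3.75, adjusted p = 0.0278). S100a4 then differed by 0.29 (adjusted p = 0.782) and S100a6 by -0.42 (adjusted p = 0.613).

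**Figure D4:**
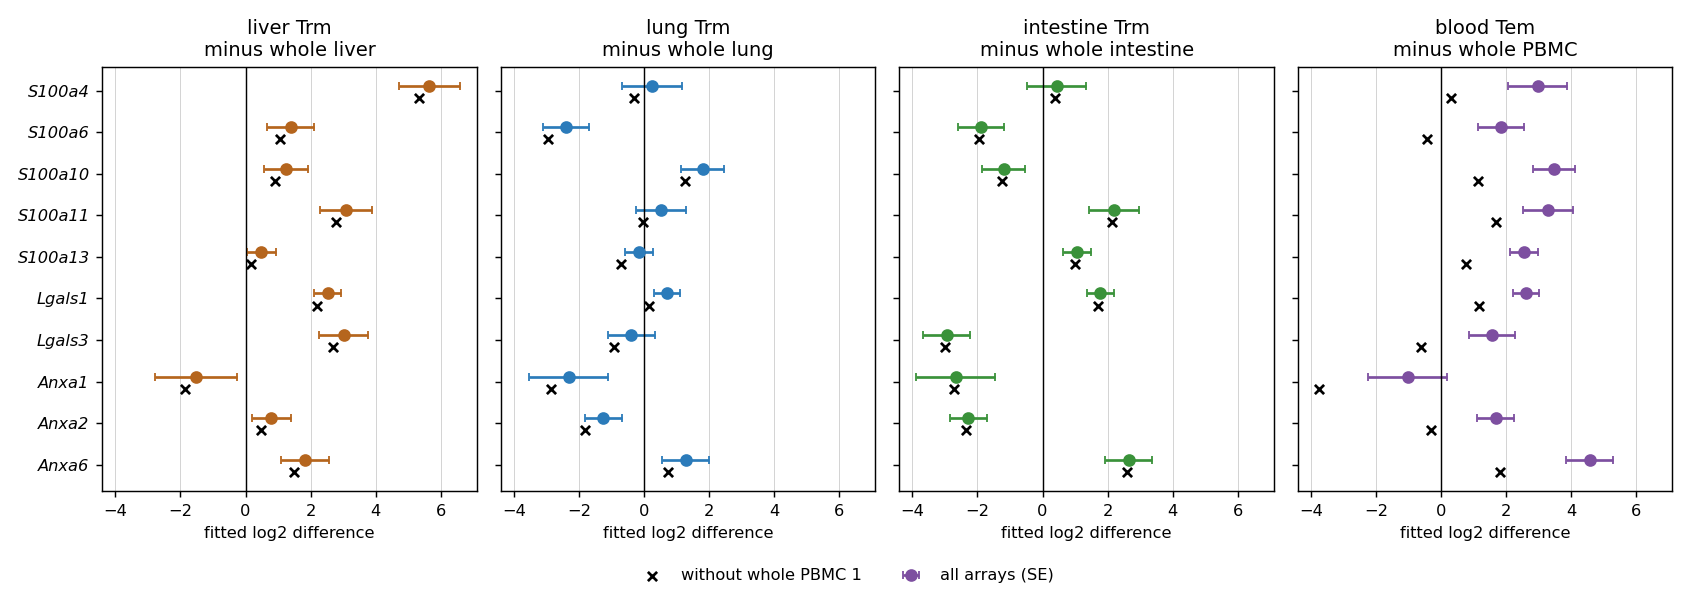
Fitted log2 difference (horizontal axis) of the 10 genes, 1 row a gene, in 4 panels, each a sorted population minus the whole sample of its own tissue; points with bars are the fit over all arrays with its SE, and crosses the fit without whole PBMC 1. Against whole intestine, Lgals3 is at -2.94 and Anxa2 at -2.28 in intestine Trm, against whole liver Lgals1 is at 2.53 in liver Trm, S100a4 there is drawn against whole liver arrays that were not well above background, and in Tem against whole PBMC all crosses lie left of their points.

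Among the whole tissues, whose arrays had no part in the choice of genes, 9 of 10 members differed between the 4 tissues (F test, limma), where 62.9% of all genes did. The spread in this test came from all 35 arrays, sorted cells included, and with only the 12 whole-tissue arrays fitted 5 members passed, where 40.7% of all genes did. Anxa1 (adjusted p = 0.0452) was no longer called without liver Trm 3 (0.0532), without any one array of whole liver, whole lung or whole intestine, or without lung Trm 3, lung Trm 6 or Tem 4 (adjusted p up to 0.122). Leaving out liver Trm 3 or whole liver 2 left 8 of 10 members called, where 64.1% and 58.2% of all genes were. The adjusted p was lowest for Lgals3 (1.31e-09), which had -8.10, -8.26 and -8.64 in whole liver, -2.29, -2.33 and -2.52 in whole lung, -0.34, -0.33 and 1.42 in whole intestine, and -7.07, -2.45 and -3.17 in whole PBMC. Whole intestine was the highest for Lgals3 with no overlap. For Anxa2 (adjusted p = 1.84e-06) whole liver had -2.89, -4.09 and -3.68, whole lung 0.10, -0.08 and -0.28, whole intestine 0.28, 0.28 and 1.44, and whole PBMC -5.11, -1.08 and -1.66. S100a4 (adjusted p = 3.88e-05) had -3.02, -3.001 and -2.44 in whole lung and -6.36, -7.88 and -4.90 in whole intestine. Anxa6 did not pass (adjusted p = 0.0553), but did without whole PBMC 1 (adjusted p = 6.96e-05).

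Set in order over the 8 groups on the 35-array scale (mean ± SD, n = 3 to 6), S100a4 ran from Tem (-0.26 ± 0.86) over lung Trm (-2.58 ± 0.97), liver Trm (-2.81 ± 0.37), whole lung (-2.82 ± 0.33) and whole PBMC (-3.22 ± 3.33) to intestine Trm (-5.94 ± 1.82), whole intestine (-6.38 ± 1.49) and whole liver (-8.46 ± 0.29). Neighbours overlapped throughout except at the last step. Lgals3 was highest in whole intestine (0.25 ± 1.01), then at -2.38 ± 0.12 in whole lung, -2.67 ± 1.42 in Tem, -2.69 ± 0.66 in intestine Trm and -2.77 ± 0.87 in lung Trm, which overlapped one another. It was -4.23 ± 2.49 in whole PBMC, -5.32 ± 0.32 in liver Trm and -8.33 ± 0.28 in whole liver, with the first and the last neighbours of the order apart.

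Tem stood first for S100a4, S100a10 (-0.98 ± 0.71), S100a11 (-2.59 ± 1.02), S100a13 (0.02 ± 0.37), Lgals1 (1.05 ± 0.53) and Anxa6 (1.11 ± 0.65), each time overlapping the second group. Whole lung stood first for S100a6 (0.19 ± 0.13) and Anxa1 (-0.49 ± 0.17), and whole intestine for Lgals3 and Anxa2 (0.67 ± 0.67). Only for Anxa1, Anxa2 and Lgals3 was the first group apart from the second. Whole liver stood last for S100a4, S100a6 (-4.20 ± 0.60), S100a11 (-8.63 ± 0.32), Lgals1 (-2.76 ± 0.35), Lgals3 and Anxa2 (-3.55 ± 0.61). Liver Trm stood last for Anxa1 (-6.31 ± 1.44), and whole PBMC for S100a10 (-4.45 ± 2.77), S100a13 (-2.52 ± 1.79) and Anxa6 (-3.47 ± 3.47), with whole PBMC 1 included.

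The genes whose 8 group means were most like those of S100a4 were Itsn2 (Pearson r = 0.942), Tm6sf1 (0.936), Fam32a (0.935), Aida (0.922) and Rcsd1 (0.922). For Lgals3 they were Rb1 (0.958), Dynlt1c (0.949), Mast2 (0.945), Golph3l (0.943) and Trdmt1 (0.931). Among the members themselves, the closest pairs over the 8 group means were S100a11 with Lgals1 (0.932), Lgals3 with Anxa2 (0.929) and S100a13 with Anxa6 (0.927). S100a4 and S100a6, next to each other on the chromosome, had 0.620, and Anxa1 and Anxa6 the lowest value (-0.310). These values describe 8 points that share arrays and scaling, whole PBMC 1 among them, and carry no test.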

How the data were processed

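Per the labels' protocols, RNA of integrity number over 8 went through 2 amplification rounds and was hybridised to 1-colour mouse arrays (35 arrays, 43020 spots, 39429 probes). The authors deposited scanner files of spot intensity, background-subtracted by Feature Extraction 11.0.1.1 per the file headers, while version 10.7 and Partek appear in the submitters' processing notes. The authors' log2 table equalled a quantile normalization of these intensities to within 0.000764 (largest median absolute difference).

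A RefSeq table (GRCm38.p6) named 27508 probes and left 11921 unnamed. From each log2 intensity the array's 75th percentile was subtracted, taken over the probes bright on all arrays of the fit (4043 in sorted cells, 1342 in all samples). The filter asked for a signal well above background on 3 or more arrays of some group, and the brightest probe on average stood for its gene. With limma 3.58.1 (R 4.3.3), 8620 genes were modelled on the 23 arrays of sorted cells and 10635 on all 35, with a mean for each group, two-sided p-values adjusted over all genes (Benjamini-Hochberg) and calls at an adjusted p under 0.05. The procedure was tested on simulated data. "At least" folds set the brighter group's mean against a floor on the arrays of the dimmer group, the lowest signal there that counts as well above background or, if higher, the signal of the gene itself.

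Beside the members, the genes named are up to 3 called genes with the largest differences from each of the 5 lists of relatives, partners and cytoskeletal genes, if well above background on all arrays of the brighter group, and, for S100a4 and Lgals3, the 5 genes most like each. The members and lists were chosen with earlier results of these data known. Markers of other cell types are textbook genes. Alternatives were quantile normalization, the authors' log2 values, normexp (offset 50, on the median spot and background columns), scaling over all probes, other filters on dim probes (none, stricter), averaging a gene's probes, array weights, fits of only the groups compared, a block for slides, and leaving out single or doubted arrays. Array number and signal over background limit the precision.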

Additional observations from a re-analysis of the deposited data

Results flagged for a closer look

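In 6 of the 40 sets of arrays of one gene in one sorted group, a single array stood far from the others by Dixon's criterion, which chance gives in about 1 of 20 sets. S100a6 was high in Tem 2 (1.57, next array -0.06). S100a10 was high in liver Trm 2 (-1.30, next -1.80) and low in intestine Trm 2 (-2.69, next -1.61). S100a11 was low in intestine Trm 2 as well (-4.24, next -2.998), and this array also had the highest fibroblast and endothelial marker means of the intestine Trm arrays. Lung Trm 5 was low for Lgals1 (-0.10, next 0.76) and for Anxa6 (0.00, next 0.81).

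Effects that differed between organs by a test of the difference itself were S100a11 (-1.93), Anxa1 (-3.28) and Anxa2 (-1.19) in liver against lung Trm, and S100a11 in intestine against liver Trm (1.80).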

How the results depend on the processing

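Of 371 counts of members recomputed under an alternative, 324 stayed within 1.5 times the count reported, and of 5273 single values 4912 kept their direction and side of the threshold, 179 were past it only in the main setting and 113 only in the alternative. Of 60 that changed sign, 33 did so with 1 array left out. The causes were not tested. The median of all genes and the split of calls moved with the scaling: in liver against lung Trm, 47.9% of calls were higher in the main setting, 36.1% after quantile normalization, 35.9% with the deposited values, 89.5% after normexp and 17.7% with scaling over all probes. In intestine against lung Trm these shares were 55.2%, 34.1%, 33.9%, 67% and 34.8%, and in intestine against liver Trm 75.7%, 57.3%, 57.6%, 56.4% and 81.9%. In Tem against whole PBMC, the share was 79.5% in the main setting, 61.8% after quantile normalization, 66% after normexp and 54.5% with scaling over all probes. In liver Trm against whole liver, it was 26.4%, 40.1%, 36.5% and 42.8% in the same order. Low signal limits S100a4 in intestine Trm, S100a11 and Anxa1 in liver Trm and Anxa1 in intestine Trm, and 3 arrays a whole tissue limit the rest.

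Replicate numbers did not pair the arrays: of 33 pairs of one number, 7 had correlated deviations over 0.1 (range -0.36 to 0.44), and 2 of 23 arrays correlated best with their own number. With the replicate number, which is also the slide, as a block, the members called were 0 in lung Trm against Tem, 0 in intestine against lung Trm, 2 in liver against lung Trm (Anxa1 at -3.09, adjusted p = 0.0583), 1 in intestine against liver Trm, 3 in liver Trm against whole liver, 2 in lung Trm against whole lung, 6 in intestine Trm against whole intestine, 8 in Tem against whole PBMC and 9 among whole tissues. All genes called in liver against lung Trm numbered 937 with the block and 1533 without. With the block they numbered 233 in lung Trm against Tem, 689 in intestine against lung Trm and 786 in intestine against liver Trm. Against the whole organ they numbered 3433 in liver Trm, 4418 in lung Trm and 3386 in intestine Trm. In Tem against whole PBMC there were 5877, and among whole tissues 6322. The genes tested were 8620 among sorted cells and 10635 on all arrays.

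Lung Trm against Tem had 1 member called with scaling over all probes, with the mean of all probes, after normexp and with only the groups compared, and 4 with array weights. Leaving out single arrays gave 0 to 1, with 1 without lung Trm 1 or 3 or any one of intestine Trm 1 to 4. Intestine against lung Trm had 1 with scaling over all probes, quantile normalization and the deposited values, 2 with array weights, and 0 to 1 with single arrays left out. Intestine against liver Trm had 2 with scaling over all probes and with only the groups compared, 0 after normexp and without liver Trm 3 and Tem 3, and 0 to 2 with single arrays left out, with 0 without liver Trm 3 or 6 and 2 without lung Trm 5. Liver against lung Trm ranged from 1 to 3, with 1 without liver Trm 5, lung Trm 1 or lung Trm 2. With only the groups compared, 3.87% of all genes were called in lung Trm against Tem and 8.59% in intestine against liver Trm. With scaling over all probes, all genes called numbered 305 in lung Trm against Tem, 946 in intestine against lung Trm and 1203 in intestine against liver Trm. After normexp they numbered 224 in lung Trm against Tem and 610 in intestine against liver Trm. No share of all genes is given for array weights.

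Liver Trm against whole liver had 6 with scaling over all probes, 8 with array weights, 7 with quantile normalization and the deposited values, 5 with only the groups compared and without whole PBMC 1 and whole liver 2, and 3 to 5 with single arrays left out. All genes called there numbered 3373 with scaling over all probes, 3510 after quantile normalization and 3506 with the deposited values. They made up 48.9% with only the groups compared and 37.5% without whole PBMC 1 and whole liver 2. Lung Trm against whole lung had 7 with array weights, 5 after normexp, 6 with only the groups compared and without whole PBMC 1 and whole liver 2, and 1 to 6 with single arrays left out. All genes called there numbered 4569 after normexp. They made up 63.6% with only the groups compared and 50.5% without whole PBMC 1 and whole liver 2. Intestine Trm against whole intestine ranged from 3 to 9. Tem against whole PBMC ranged from 5 to 9, with 5 without whole PBMC 1 and whole liver 2, where 31.3% of all genes were called. Among whole tissues, 5 members were called with only the groups compared, where 40.7% of all genes were.

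Changes of sign touched members that were not called, apart from Anxa2 and S100a6 in Tem against whole PBMC. Anxa2 (-0.32) and S100a6 (-0.42) turned there without whole PBMC 1, alone or together with whole liver 2. Of the other called genes named, Ahnak turned in lung Trm against Tem with the mean of all its probes (0.28). Array weights turned Anxa1 in intestine against liver Trm (-0.58), Anxa2 in lung Trm against Tem (0.21), Anxa6 in liver against lung Trm (-0.056) and Lgals3 in Tem against whole PBMC (-0.073). Normexp turned Anxa1 in intestine against liver Trm (-0.20) and S100a4 in liver against lung Trm (0.049). Scaling over all probes turned Anxa6 (0.002) and S100a13 (0.051) in intestine against liver Trm, Anxa6 (-0.33) and S100a13 (-0.38) in liver against lung Trm, and Lgals3 in intestine against lung Trm (-0.14). The deposited values and quantile normalization turned Anxa6 (-0.068 and -0.079) and S100a13 (-0.066 and -0.070) in liver against lung Trm, S100a10 in intestine against liver Trm (-0.090 and -0.092) and Lgals3 in intestine against lung Trm (-0.11 and -0.11). Without whole PBMC 1 and whole liver 2, Lgals3 in Tem against whole PBMC (-0.61) and S100a11 (-0.02) and S100a4 (-0.30) in lung Trm against whole lung turned. With only the groups compared, S100a4 in lung Trm against whole lung was -0.035, and without liver Trm 3 and Tem 3, S100a13 there was 0.11.

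With single arrays left out, Tem against whole PBMC ranged from -3.75 to 0.064 for Anxa1, from -0.32 to 2.45 for Anxa2, from -0.61 to 2.45 for Lgals3 and from -0.42 to 2.68 for S100a6. Lung Trm against whole lung ranged from -0.02 to 0.84 for S100a11, from -0.70 to 0.05 for S100a13 and from -0.30 to 0.71 for S100a4. Lung Trm against Tem ranged from -0.39 to 0.005 for Anxa2 and from -0.32 to 0.31 for Lgals3. Liver against lung Trm ranged from -0.045 to 0.21 for Anxa6, from -0.008 to 0.13 for S100a13 and from -0.35 to 0.23 for S100a4. Intestine against lung Trm ranged from -0.25 to 0.009 for Anxa6, from -0.23 to 0.027 for Lgals1, from -0.085 to 0.39 for Lgals3 and from -0.32 to 0.14 for S100a11, and Anxa1 in intestine against liver Trm from -0.61 to 0.83.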
